A study of Rattus norvegicus with 74 samples.

Results

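Expression of Abcg5 and Abcg8, of Nr1h3 (LXR alpha) and of 4 further LXR target genes, Abca1, Abcg1, Mylip and Lpcat3, was followed in rat liver across 4 agents. The 7 genes are among 14217 genes measured, and every probe set annotated to 1 of them alone was taken, 13 in all. Abcg5 and Abcg8 were selected on their measured log2 differences, which were lower in rats given PBDE-47 or DE-71, so their values in those rats are a description, with no test. The other 5 genes were chosen for their known place in LXR biology.

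Livers were taken on postnatal day 22 from Wistar Han rats (Crl:WI(Han)) dosed by oral gavage. PBDE-47, a single tetrabrominated diphenyl ether, and DE-71, a commercial mixture of brominated diphenyl ethers, were each given at 0.1, 15 and 50 mg/kg beside a group at 0. For both of these agents the dams were dosed daily from gestation day 6 to 21 and the pups from postnatal day 12 to 21. Phenobarbital, which activates the CAR nuclear receptor, was labelled 0, 5 or 45 mg/kg, and PCB126, a dioxin-like biphenyl that activates the Ah receptor, was labelled 0, 10, 50 or 250 mg/kg. The days of dosing for phenobarbital and PCB126 are not given separately in the sources used here, and the labelled dose unit of PCB126 could not be checked. Each of the 15 groups had 5 arrays, except DE-71 at 50 mg/kg, which had 4. The labels do not say which pups shared a dam, so littermates may be among the samples and p-values reflect only the spread seen here. In the PBDE-47 and DE-71 groups the dosing of the dam and that of the pup cannot be told apart.

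ABCG5 and ABCG8 are half-transporters that work only as a pair: together they move cholesterol and plant sterols from the hepatocyte into bile, and from the enterocyte back into the gut. LXR alpha and its close relative LXR beta are nuclear receptors that bind oxysterols as partners of RXR and switch on genes that remove cholesterol. ABCA1 loads cholesterol onto apolipoprotein A-I, ABCG1 passes it to HDL, MYLIP marks the LDL receptor for degradation, and LPCAT3 inserts polyunsaturated fatty acids into phospholipids.

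Abcg5 and Abcg8 lie head to head on chromosome 6 and share 1 short stretch upstream of both genes, which is shown because it is the sequence the pair has in common. In the RefSeq annotation of GRCr8, Abcg8 occupies chr6:15698448-15717730 on the minus strand and Abcg5 chr6:15717936-15743376 on the plus strand. The 205 bases between the 2 annotated starts, chr6:15717731-15717935, read on the plus strand as follows, with AGATAA, known as the motif of GATA factors, and the reverse complement of CCAAT in capitals.
Abcg8 to Abcg5: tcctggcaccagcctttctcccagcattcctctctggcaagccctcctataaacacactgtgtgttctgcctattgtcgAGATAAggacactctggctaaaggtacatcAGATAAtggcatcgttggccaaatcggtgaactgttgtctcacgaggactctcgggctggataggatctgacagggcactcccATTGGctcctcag
Both strands were searched. AGATAA occurred 2 times, 91 and 121 bases before the Abcg5 start counted from the last base of the match, while 8.35% of 33469 RefSeq upstream regions of the same length held it at least 1 time and 0.604% held it 2 or more times. CCAAT occurred 1 time, and 29.7% of the regions held it. The LXR element DR4 (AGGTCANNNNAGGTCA) was not among these 205 letters, and 0.00299% of the regions held it. The nuclear receptor hexamer AGGTCA (11.7% of regions) and the E-box CACGTG (4.78% of regions) were not found there either. Of the other genes with an entry in the promoter table, Nr1h3 held 1 AGATAA, Abca1 held 1 CACGTG, and Mylip and Lpcat3 held 2 and 3 CCAAT. A match is a string of letters, not a proven site, and a missing match says nothing about LXR binding elsewhere.

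All values below are log2 expression as the authors deposited it, and a difference of 1 is 2-fold. The median of an array lay between 4.82 and 5.04. Within PBDE-47 at 0 mg/kg, replicates 3 and 4 were nearly identical, as were replicates 1 and 2 of DE-71 at 15 mg/kg, and each pair was averaged and counted as 1 sample, which leaves 72 samples. A further 2 pairs of nearly identical arrays carried different doses: replicate 3 of PBDE-47 at 15 mg/kg with replicate 3 at 50 mg/kg, and replicate 5 of DE-71 at 15 mg/kg with replicate 4 at 50 mg/kg. One dose label in each of these pairs may be wrong, so results of those doses are also given without both arrays. Replicate 2 of DE-71 at 50 mg/kg agreed least with its group (mean r of 0.9783 over genes), and results of that dose are also given without it. RNA was taken from whole liver, in which fewer cells of a type and less RNA per cell cannot be told apart.

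Both transporters were lowest in the livers exposed to PBDE-47. Abcg5 read 8.34, 8.68, 8.52 and 8.69 in the 4 controls, and 8.92, 9.24, 8.02, 7.93 and 8.11 at 0.1 mg/kg. At 15 mg/kg it read 5.98, 7.17, 6.48, 7.65 and 6.54, and at 50 mg/kg 5.43, 5.83, 6.55, 5.77 and 5.90. Every liver at 15 and 50 mg/kg was below every control, the 2 upper doses overlapped each other, and 0.1 mg/kg overlapped the controls. The group means were 8.56 ± 0.16 (SD, n = 4) in controls, 8.44 ± 0.60 at 0.1, 6.76 ± 0.65 at 15 and 5.89 ± 0.41 at 50 mg/kg (n = 5 each), so that the level at 50 mg/kg was 15.8% of the control level. The differences from control were -0.11 (95% interval -0.95 to 0.72), -1.79 (-2.63 to -0.96) and -2.66 (-3.50 to -1.83). Without the nearly identical arrays they were -1.72 at 15 and -2.83 at 50 mg/kg.

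Abcg8 followed the same order with PBDE-47. Controls read 6.70, 7.36, 6.95 and 6.70, and livers at 0.1 mg/kg read 6.95, 7.59, 6.15, 5.81 and 6.52. Livers at 15 mg/kg read 4.29, 5.02, 4.14, 5.33 and 4.06, and livers at 50 mg/kg read 3.51, 4.18, 4.38, 3.73 and 4.13. Again 0.1 mg/kg overlapped the controls and the 2 upper doses lay wholly below them. Background for such a separation is not small: 2.43% of all genes at 15 mg/kg and 4.2% at 50 mg/kg had every treated liver below every control. The Abcg8 differences were -0.32 (-1.19 to 0.54), -2.36 (-3.22 to -1.50) and -2.94 (-3.81 to -2.08), and -2.25 and -3.04 at the upper doses without the nearly identical arrays. At 50 mg/kg the mean of 3.99 ± 0.35 (SD, n = 5) was under the median of the arrays. No detection call was used here, so the remaining 13.0% of the control level may include background signal.

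In DE-71 livers the pair was lower too, with a wider spread. Abcg5 read 7.94, 9.22, 7.79, 7.48 and 9.14 in controls and 8.96, 6.74, 8.48, 7.88 and 8.40 at 0.1 mg/kg. It read 6.94, 7.83, 6.15 and 8.03 at 15 mg/kg and 6.17, 6.17, 7.94 and 6.54 at 50 mg/kg. The 7.94 at 50 mg/kg came from replicate 4, the array nearly identical to replicate 5 at 15 mg/kg, and it alone reached into the control range at that dose. Differences from control were -0.22 (-1.01 to 0.56) at 0.1, -1.08 (-1.91 to -0.24) at 15 and -1.61 (-2.44 to -0.78) at 50 mg/kg. Without the nearly identical arrays they were -1.34 and -2.02 at the upper doses, and -1.43 at 50 mg/kg without replicate 2.

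Abcg8 in the same livers read 6.02, 7.38, 5.77, 5.79 and 7.10 in controls and 6.45, 4.74, 6.75, 5.80 and 6.53 at 0.1 mg/kg. It read 5.44, 5.67, 4.43 and 5.59 at 15 mg/kg and 3.90, 4.15, 5.67 and 4.70 at 50 mg/kg. All livers at both upper doses were below the lowest control, which was so for 1.21% of all genes at 15 mg/kg and 2.9% at 50 mg/kg. The differences were -0.36 (-1.17 to 0.46), -1.13 (-1.99 to -0.27) and -1.81 (-2.67 to -0.94). Leaving out the nearly identical arrays gave -1.23 and -2.16 at the upper doses, and leaving out replicate 2 gave -1.57 at 50 mg/kg.

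**Figure D1:**
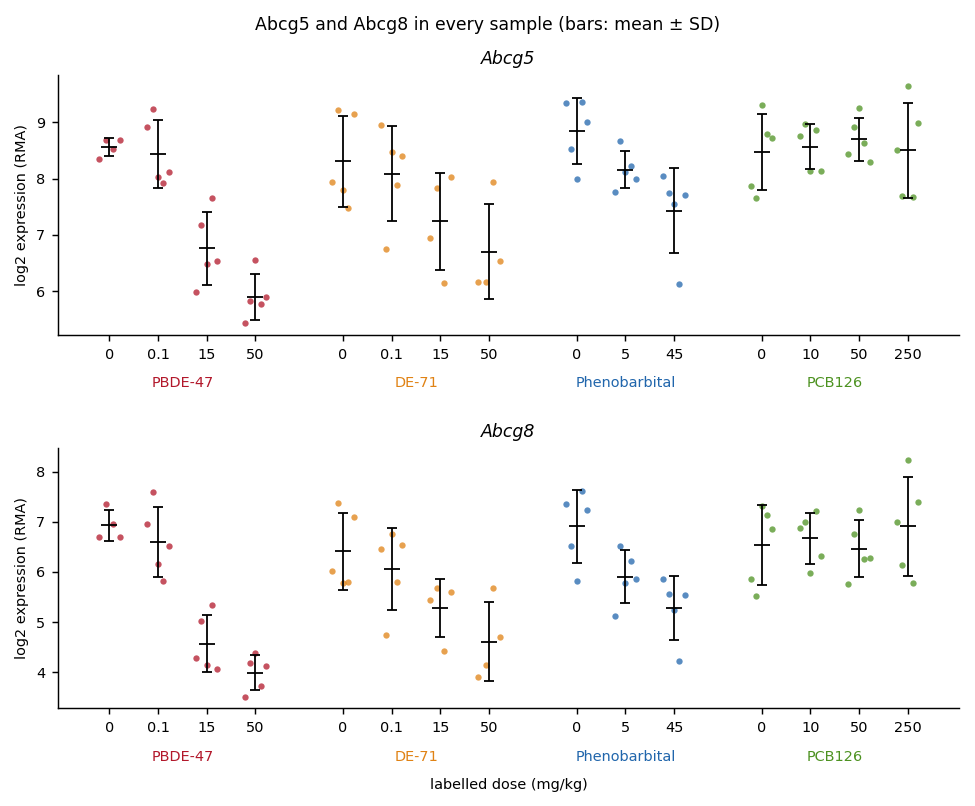
Log2 expression of Abcg5 (top) and Abcg8 (bottom) in every sample, by agent and labelled dose in mg/kg; points are samples and black bars the mean ± SD. Both genes step down with PBDE-47, DE-71 and phenobarbital and stay level with PCB126, where Abcg5 group means lie between 8.47 and 8.70.

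At matched doses the size of the difference was not resolved between the mixture and the single congener. The DE-71 response minus the PBDE-47 response was -0.11 (-1.26 to 1.03), 0.72 (-0.46 to 1.90) and 1.05 (-0.13 to 2.23) for Abcg5 at 0.1, 15 and 50 mg/kg. For Abcg8 it was -0.03 (-1.22 to 1.15), 1.23 (0.01 to 2.45) and 1.14 (-0.08 to 2.36). The pair was picked for its values with these agents, so the intervals are a description and not a test. Without the nearly identical arrays the gaps at 15 mg/kg were 0.38 (-0.83 to 1.59) for Abcg5 and 1.02 (-0.28 to 2.32) for Abcg8, and those at 50 mg/kg were 0.80 (-0.40 to 2.01) and 0.88 (-0.42 to 2.18). Without replicate 2 of DE-71 at 50 mg/kg, the gap of Abcg8 at that dose was 1.37 (0.11 to 2.64). From 15 to 50 mg/kg Abcg5 differed by -0.87 (-1.66 to -0.08) with PBDE-47 and -0.53 (-1.41 to 0.34) with DE-71. The same step for Abcg8 was -0.58 (-1.40 to 0.23) and -0.68 (-1.59 to 0.23).

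With phenobarbital both transporters fell at 45 mg/kg. The pair was picked for its PBDE-47 and DE-71 values, but earlier results for phenobarbital were known as well, so the p-values here are not independent evidence. Abcg5 read 9.35, 8.53, 7.99, 9.37 and 9.0 in controls, 7.77, 8.66, 8.12, 8.23 and 8.0 at 5 mg/kg, and 8.04, 7.74, 7.54, 6.13 and 7.71 at 45 mg/kg. All 5 livers at 45 mg/kg were below the control mean, and the highest of them just overlapped the lowest control. The fall was 1.42 log2 units (difference -1.42, 95% interval -2.20 to -0.63, limma adjusted p = 0.030), to 37.5% of the control level.

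Abcg8 read 7.36, 6.52, 5.82, 7.62 and 7.23 in phenobarbital controls, 5.12, 6.52, 5.78, 6.22 and 5.86 at 5 mg/kg, and 5.86, 5.55, 5.24, 4.23 and 5.53 at 45 mg/kg. The difference at 45 mg/kg was -1.63 (-2.44 to -0.81, adjusted p = 0.012), to 32.4% of control. Calls throughout are at an adjusted p below 0.05 over all genes, and 188 genes (1.32%) were called as fallen in this comparison. At 5 mg/kg the differences were -0.69 (-1.48 to 0.09, adjusted p = 0.81) and -1.01 (-1.82 to -0.20, adjusted p = 0.61) and neither was called. The calls at 45 mg/kg rest on few animals. Abcg5 lost its call without control replicate 1 (-1.29, adjusted p = 0.10), 4 (-1.29, 0.088) or 5 (-1.38, 0.066) and without replicate 4 at 45 mg/kg (-1.09, 0.16). Abcg8 lost it without control replicate 4 (-1.45, adjusted p = 0.050) and without replicate 4 at 45 mg/kg (-1.37, 0.070).

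Set against phenobarbital at 45 mg/kg, the PBDE-47 response at 50 mg/kg was larger, by -1.25 (-2.39 to -0.10) for Abcg5 and -1.32 (-2.50 to -0.13) for Abcg8, and the DE-71 response at 50 mg/kg differed by -0.19 (-1.34 to 0.95) and -0.18 (-1.36 to 1.01). These are descriptions across different agents and doses, and the pair was picked for its low values with PBDE-47 and DE-71, so the intervals are no test. Of the 5 LXR genes none was called in either comparison (0 and 0.148% of all genes called), and Nr1h3 came nearest, with the DE-71 response higher by 0.64 (0.25 to 1.03, adjusted p = 0.17).

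PCB126 left no called difference in either transporter. Abcg5 ranged from 7.66 to 9.30 in controls and from 7.67 to 9.64 at 250 mg/kg, with means of 8.47 ± 0.68 and 8.50 ± 0.85 (SD, n = 5 each). Its differences were 0.10 (-0.69 to 0.88), 0.23 (-0.56 to 1.02) and 0.03 (-0.76 to 0.81) at 10, 50 and 250 mg/kg. Those of Abcg8 were 0.14 (-0.67 to 0.96), -0.08 (-0.89 to 0.74) and 0.38 (-0.44 to 1.19), with adjusted p of at least 0.96 for both genes at every dose. Every lower bound lay above the estimated differences at 15 and 50 mg/kg PBDE-47. In the same livers Cyp1a1, the classic Ah receptor target, rose by 4.24 at 250 mg/kg (adjusted p = 2.4e-06), yet few genes were called there (0.0563%). A rise of Cyp1a1 was not particular to PCB126. It was also called as risen at 15 and 50 mg/kg DE-71 (1.01% and 4.83% of all genes risen). The same held at 50 mg/kg PBDE-47 without the nearly identical arrays (3.45% of all genes called). Ces2c, a carboxylesterase induced through CAR, rose by 3.86, 2.85 and 3.81 at the top doses of PBDE-47, DE-71 and phenobarbital.

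Nr1h3, the gene of LXR alpha, was not called as lower with any agent. With PBDE-47 it read 9.30, 9.50, 9.30 and 9.24 in controls and 9.25, 9.20, 9.21, 9.35 and 9.22 at 50 mg/kg, so the groups overlapped. Its difference was -0.09 (-0.37 to 0.19, adjusted p = 0.84) at 50 mg/kg and -0.09 (-0.37 to 0.20) at 15 mg/kg. At 45 mg/kg phenobarbital it was -0.18 (-0.44 to 0.09, adjusted p = 0.64), and at 250 mg/kg PCB126 0.19 (-0.07 to 0.46, adjusted p = 0.95).

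With DE-71 at 50 mg/kg Nr1h3 was called as risen instead. Controls read 9.50, 9.26, 9.73, 9.33 and 9.01 and treated livers 10.58, 9.69, 9.42 and 9.62, and only the first of these lay above the highest control. The difference was 0.46 (0.18 to 0.74, adjusted p = 0.025), one of 2 calls among the 5 genes, beside 10.2% of all genes called in this comparison (4.83% risen, 5.35% fallen). Against 15 mg/kg, Nr1h3 differed by 0.33 (0.03 to 0.63, adjusted p = 0.30), or by 0.08 (-0.20 to 0.35) without replicate 2 and 0.48 (0.14 to 0.82, adjusted p = 0.097) without the nearly identical arrays, and none of the 5 genes was called, beside 0.134% of all genes called as risen and 0.0633% as fallen. The 10.58 belongs to replicate 2, and without it the difference was 0.21 (-0.05 to 0.47, adjusted p = 0.51). The call was also lost without control replicate 2 (0.43, adjusted p = 0.059) or 5 (0.37, 0.11), and it held without the nearly identical arrays (0.60, 0.0048). It was lost as well when only the arrays of the comparison (adjusted p = 0.37) or of DE-71 (0.23) entered the fit.

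Abca1 gave the other call at that dose, in the opposite direction. Controls read 9.21, 9.47, 9.20, 9.31 and 9.60 and treated livers 8.43, 8.92, 8.99 and 9.24, with an overlap of 1 liver. The difference was -0.46 (-0.74 to -0.19, adjusted p = 0.021), and it was -0.31 (-0.59 to -0.02, adjusted p = 0.31) without replicate 2, again the extreme sample. Leaving out control replicate 2 (-0.43, adjusted p = 0.052) or 5 (-0.40, 0.077), or fitting only the arrays of the comparison (adjusted p = 0.22) or of DE-71 (0.088), ended the call too. At PBDE-47 50 mg/kg the controls read 9.49, 9.35, 9.14 and 9.47 and the treated livers 9.21, 9.29, 9.33, 9.22 and 9.24, a difference of -0.10 (-0.38 to 0.17, adjusted p = 0.81).

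With phenobarbital the brightest probe set of Abca1 read slightly lower at both doses, a difference that was not called. Controls read 9.50, 9.51, 9.74, 9.56 and 9.59, and all livers at 5 mg/kg (9.17 to 9.42) and at 45 mg/kg (9.22 to 9.44) were below them. Such a separation was seen for 1.55% and 3.39% of all genes at these doses. The differences were -0.31 (-0.56 to -0.05, adjusted p = 0.67) and -0.23 (-0.49 to 0.03, adjusted p = 0.48). The 3 further probe sets of Abca1 differed less, by -0.14, -0.12 and 0.02 at 5 mg/kg and -0.16, -0.09 and -0.06 at 45 mg/kg.

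Replicate 5 of PCB126 at 50 mg/kg, the array with the next lowest agreement with its group (mean r 0.9837), paired a high Nr1h3 of 10.04 with a low Abca1 of 8.19, as did replicate 2 of DE-71 at 50 mg/kg with 10.58 and 8.43. The other PCB126 livers at 50 mg/kg read 9.37 to 9.52 for Nr1h3 and 9.20 to 9.36 for Abca1. Across the 72 samples, as deviations from their group means, the 2 genes had r = -0.44. The part of array quality in this relation was not tested.

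**Figure D2:**
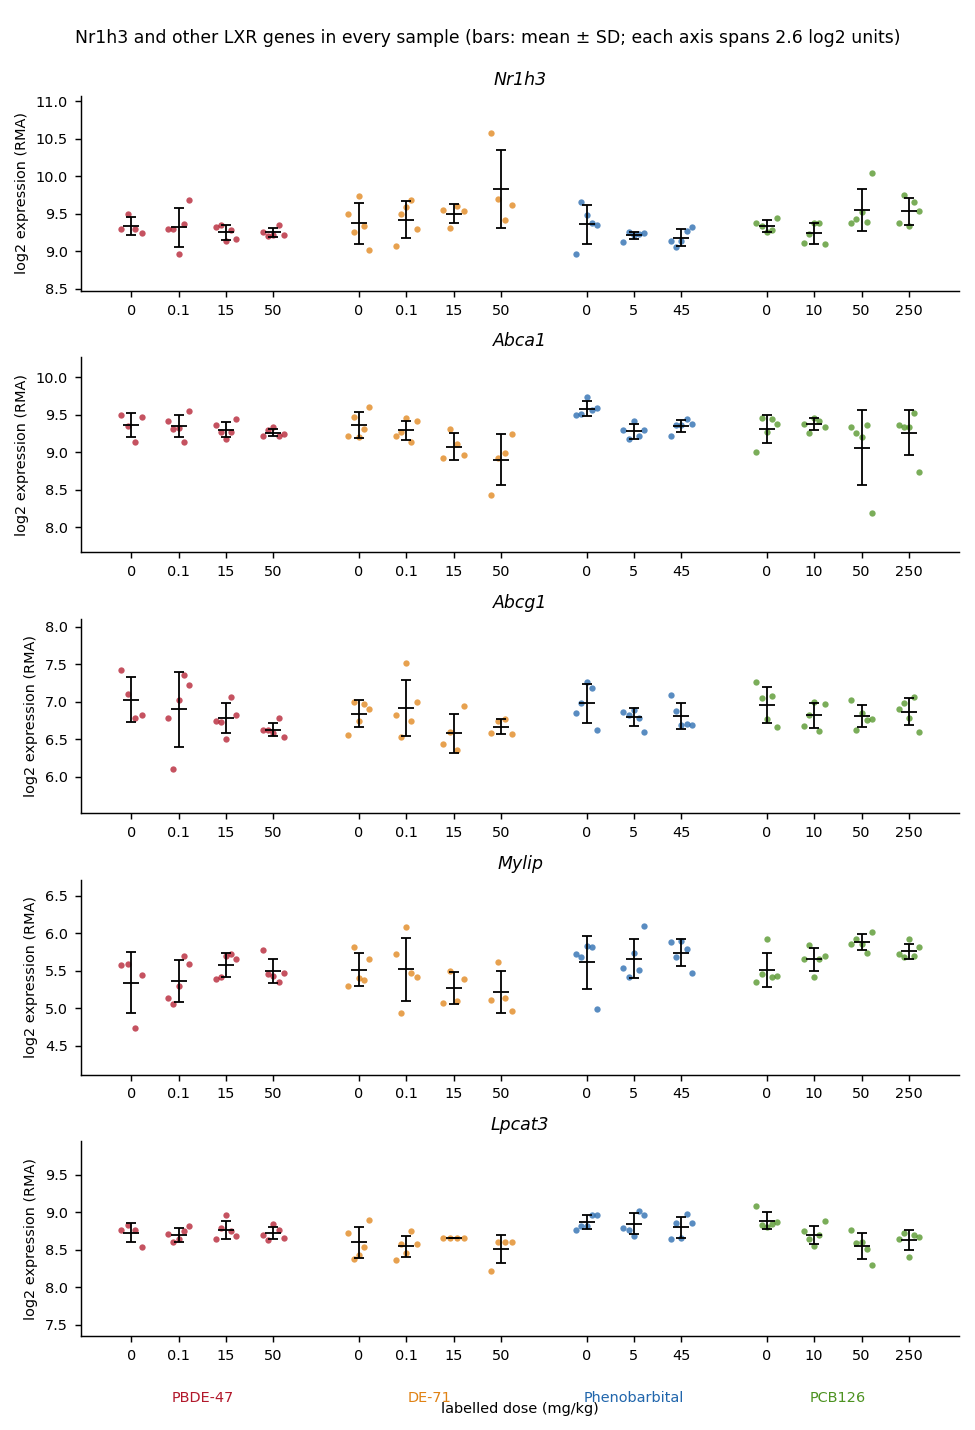
Log2 expression of Nr1h3, Abca1, Abcg1, Mylip and Lpcat3 in every sample, by agent and labelled dose in mg/kg; points are samples, black bars the mean ± SD, and all axes have the same span. Group means span 0.65, 0.68, 0.45, 0.67 and 0.38 log2 units, against 2.96 for Abcg5 and 2.94 for Abcg8, and the single high Nr1h3 and low Abca1 points are replicate 2 of DE-71 50 mg/kg and replicate 5 of PCB126 50 mg/kg.

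Abcg1, Mylip and Lpcat3 had no call in any of the 11 comparisons with control, and at 15 mg/kg none of the 5 LXR genes was called with PBDE-47 (0.823% of all genes called) or DE-71 (1.24%, 0.239% as fallen). Abcg1 came nearest with PBDE-47, reading 7.42, 7.11, 6.78 and 6.82 in controls and 6.62, 6.63, 6.59, 6.78 and 6.53 at 50 mg/kg. All 5 treated livers were below the control mean, and the difference was -0.40 (-0.72 to -0.08, adjusted p = 0.17). Markers of Kupffer cells, the resident liver macrophages, moved with it. Of 7 measured, 5 fell at that dose (1.68% of all genes called as fallen), Cd163 not without the nearly identical arrays (Clec4f by 0.80, Csf1r by 0.68, Cd163 by 0.62, C1qa by 0.60 and Cd68 by 0.60), with a list median of -0.60, and their part in the Abcg1 value was not tested. At the other top doses Abcg1 differed by -0.17 (DE-71 and phenobarbital) and -0.10 (PCB126).

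Mylip was dim, with group means between 5.21 and 5.88. It differed by 0.16 (-0.17 to 0.49) at 50 mg/kg PBDE-47, -0.30 (-0.63 to 0.03) at 50 mg/kg DE-71, 0.14 (-0.17 to 0.45) at 45 mg/kg phenobarbital and 0.25 (-0.06 to 0.56) at 250 mg/kg PCB126. Lpcat3 was the steadiest, its interval at 50 mg/kg PBDE-47 running from -0.19 to 0.18.

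With PCB126 the brightest probe set of Lpcat3 was lower in every liver of the upper doses, a difference that was not called. Controls read 9.08, 8.83, 8.80, 8.85 and 8.87, livers at 50 mg/kg 8.77, 8.59, 8.60, 8.51 and 8.30, and livers at 250 mg/kg 8.65, 8.73, 8.41, 8.70 and 8.67. All 10 treated livers lay below every control, as was so for 0.352% and 0.513% of all genes at these doses, with differences of -0.33 (-0.50 to -0.16, adjusted p = 0.69) and -0.25 (-0.43 to -0.08, adjusted p = 0.68). Few genes passed the test with PCB126 (0.00703% at 50 mg/kg), so an adjusted p near 0.7 leaves a shift of this size undecided. The further probe set of Lpcat3 did not show it, with wider intervals. That set differed by -0.05 (-0.65 to 0.55) at 50 mg/kg and 0.07 (-0.53 to 0.67) at 250 mg/kg.

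**Figure D3:**
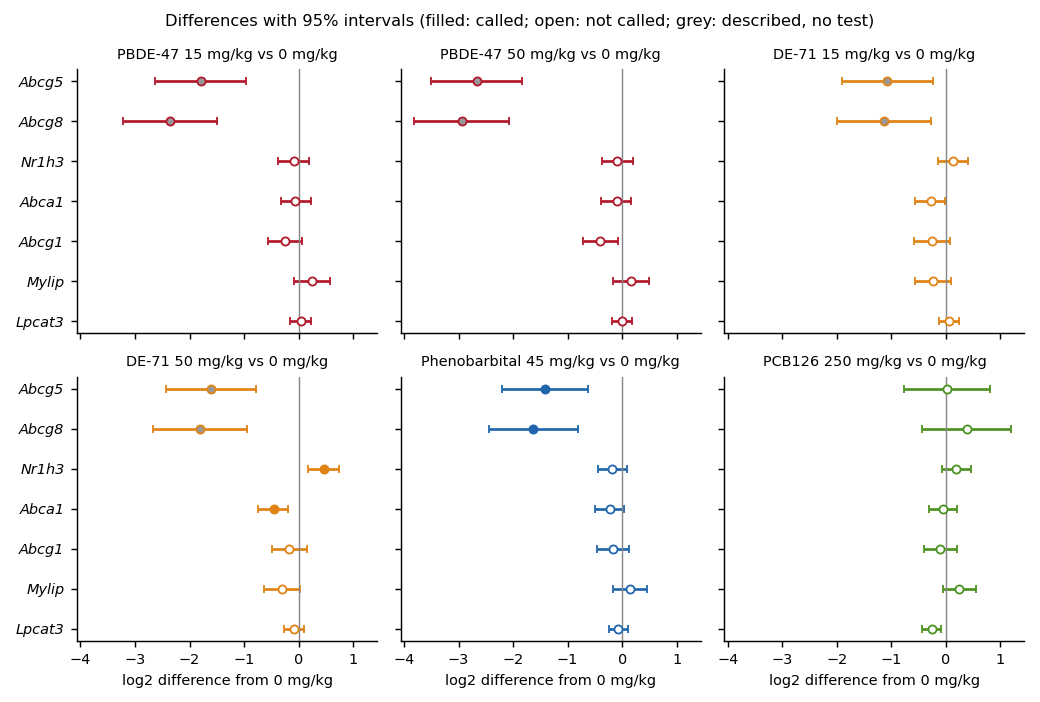
Log2 difference from the 0 mg/kg group of the same agent for the 7 genes in 6 comparisons; points are estimates and bars 95% intervals, filled where called, open where not called and grey where described with no test. Abcg5 and Abcg8 sit left of 0 with PBDE-47, DE-71 and phenobarbital, while the other genes stay within 0.46 of 0.

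The response to DE-71 did not differ by test from that to PBDE-47 in any of the 5 tested genes at 0.1, 15 or 50 mg/kg, 15 comparisons in all, with p-values adjusted over all genes (0, 0.0141 and 0.12% of genes called at the 3 doses). Nr1h3 at 50 mg/kg had a gap of 0.55 (0.15 to 0.95, adjusted p = 0.29), which was 0.30 (-0.06 to 0.66, adjusted p = 0.79) without replicate 2 of DE-71 and 0.68 (0.26 to 1.10, adjusted p = 0.18) without the nearly identical arrays. The gap of Mylip at 15 mg/kg was -0.48 (-0.95 to -0.02, adjusted p = 0.97), and the intervals leave room for differences of that size.

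Several of these genes are measured by more than 1 probe set. None of the 3 further probe sets of Abca1, the 2 of Abcg1 and the 1 of Lpcat3 was called against control when all 20826 single-gene probe sets were tested, the smallest adjusted p being 0.27, 0.57 and 0.66. At DE-71 50 mg/kg the 3 further sets of Abca1 differed by -0.38, -0.44 and -0.63 (adjusted p = 0.48, 0.28 and 0.27), in the direction of the called set and of similar size.

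The pair was also set against Nr1h3 on the same array. With PBDE-47 and DE-71 this is a description, since the pair was picked for its fall there. Abcg8 minus Nr1h3 changed by -2.27 at 15 and -2.85 at 50 mg/kg PBDE-47, and Abcg5 minus Nr1h3 by -1.71 and -2.57. Treated livers and controls did not overlap, as for the pair alone, and Nr1h3 itself differed by -0.09 at both doses. With DE-71 at 50 mg/kg the changes were -2.27 and -2.07 and with phenobarbital at 45 mg/kg -1.45 and -1.24, and these groups overlapped. The DE-71 changes were larger than those of the pair alone, and Nr1h3 was itself called as risen there. That rise was 0.46, or 0.21 and not called (limma adjusted p = 0.51) without replicate 2. With PCB126 at 250 mg/kg the within-array changes were 0.18 and -0.17.

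Abcg5 and Abcg8 also varied together from animal to animal within a dose. As deviations from group means, their correlation was 0.93 over all 72 samples, 0.96 over the 19 control samples and 0.97 over the 20 PCB126 samples. Among 14216 other genes Abcg8 ranked 1 by correlation with Abcg5, the next being Cyp4a3 at 0.72. Abcg5 ranked 1 for Abcg8, ahead of Il1rap at 0.70. These are descriptions over samples that share arrays and normalization, and at r over 0.9 the members of the pair are not independent witnesses of one another. Nr1h3 ran against Abcg5 within groups (r = -0.41 over all samples, -0.56 in controls), and Abca1 and Abcg1 were near 0 with it (0.07 and -0.04).

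**Figure D4:**
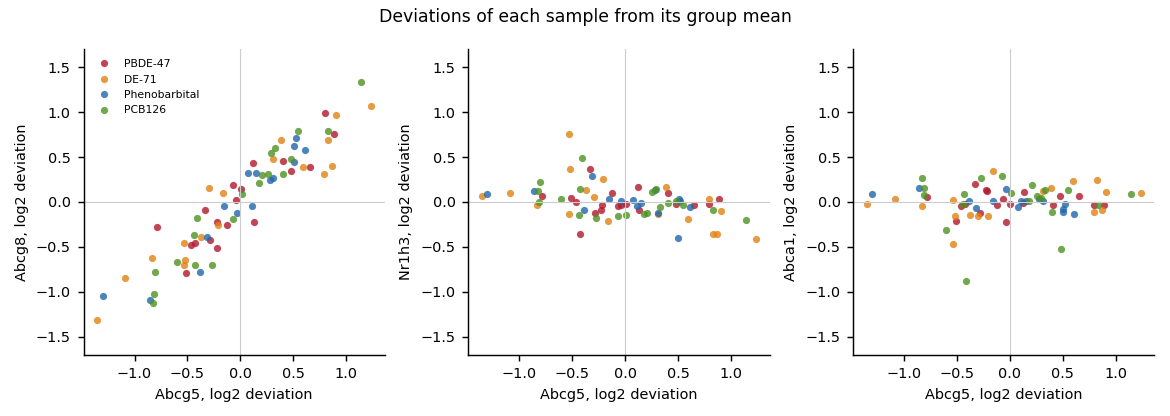
Deviation of each of 72 samples from its group mean in log2 units, Abcg5 on the x axis against Abcg8, Nr1h3 and Abca1 on the y axes, coloured by agent. Abcg8 lies along a line with Abcg5 (r = 0.93), while Nr1h3 (r = -0.41) and Abca1 (r = 0.07) do not.

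Genes that work with LXR or are its targets were described from lists chosen with earlier results of these data known. Of 8 measured partners and cofactors, which include LXR beta (Nr1h2) and RXR alpha (Rxra), none was called at the top dose of any agent. Over all genes 4.03%, 10.2%, 2.7% and 0.0563% were called there with PBDE-47, DE-71, phenobarbital and PCB126. The lack of a call among 8 genes therefore says little. Nr1h2 differed by -0.19 (-0.67 to 0.30) and Rxra by 0.11 (-0.32 to 0.54) at 50 mg/kg PBDE-47. The list medians lay between -0.14 and 0.10 at the top doses, against at most 0.02 in size for all genes. Ncoa1, a coactivator, was called as fallen at DE-71 50 mg/kg only without the nearly identical arrays (13.4% of all genes called).

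Other LXR targets moved in both directions. Of 18 measured at 50 mg/kg PBDE-47 (4.03% of all genes called, 2.35% risen and 1.68% fallen), Lpl, which releases fatty acids from lipoproteins, rose by 1.96 (adjusted p = 2.6e-05) and Pltp, which transfers phospholipids between them, fell by 1.20 (2.1e-05). Both were called in the same direction at 15 mg/kg (1.85 and -0.76), where the Pltp call was lost without the nearly identical arrays. Scd, the fatty acid desaturase, differed by -2.28 (-3.77 to -0.78) and Srebf1, the lipogenic factor, by -0.56, with adjusted p of 0.067 and 0.19. The list median was -0.06.

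With DE-71 at 50 mg/kg, 2 of the 18 targets fell (5.35% of all genes called as fallen), Srebf1 by 1.01 (adjusted p = 0.0025) and the lipid droplet coat gene Plin2 by 0.41 (0.040), and neither was called without replicate 2. Plin2 lost its call in 6 of 9 runs that left out 1 sample (-0.54 to -0.21). Lpl differed by 0.85 (adjusted p = 0.083). With phenobarbital at 45 mg/kg (2.7% of all genes called, 1.38% risen), 5 fell and Lpl rose by 1.42. The 5 differences were -3.02 for Scd, -2.31 for Cyp7a1, which starts the classic route of bile acid synthesis, -0.87 for Srebf1, -0.32 for Apoc2 and -0.16 for Apoc1, the last losing its call in 8 of 10 runs that left out 1 sample (-0.18 to -0.15). Srebf1 lost its call in 3 of 10 such runs (-1.01 to -0.70). Lpl and Scd have regulators besides LXR. Cyp7a1 at 50 mg/kg differed by 0.53 with PBDE-47 and by 0.03 with DE-71, neither called. With PCB126 at 250 mg/kg none of the 18 was called (0.0563% of all genes called), and the list median was -0.07.

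**Figure D5:**
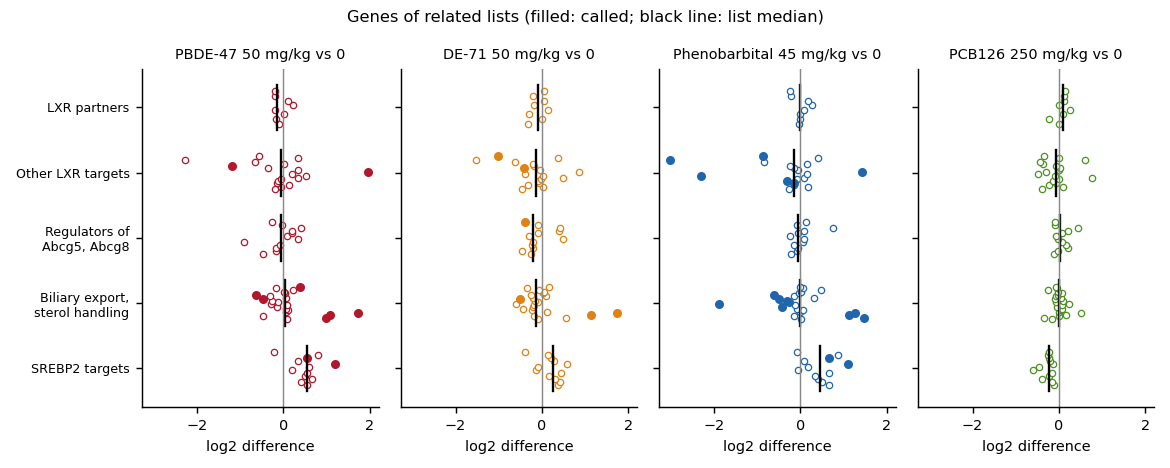
Log2 difference from control for each measured gene of 5 related lists at the top dose of each agent; filled points were called, open points were not, and black lines mark list medians. LXR partners cluster at 0 (medians -0.14 to 0.10), LXR targets spread from -3.02 to 1.96, and SREBP2 targets have a median of 0.54 with PBDE-47.

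Of 12 factors reported to act on Abcg5 and Abcg8, 1 was called at a top dose, in a comparison where 10.2% of all genes were called (5.35% as fallen). Thrb, a thyroid hormone receptor, fell by 0.39 at 50 mg/kg DE-71 (adjusted p = 0.013) and was not called without replicate 2. It differed by -0.27 with PBDE-47 (adjusted p = 0.17). Hnf4a differed by -0.08 (-0.32 to 0.16) and -0.22 (-0.46 to 0.02) at the top doses of PBDE-47 and DE-71, Gata4 by -0.16 (-0.54 to 0.21) and -0.46 (-0.83 to -0.08, adjusted p = 0.11), and Nr5a2 by 0.21 and -0.08.

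Among other genes of biliary export and sterol handling, 3 export pumps were called as risen. Of 22 measured, Abcc2, the canalicular exporter of organic anions, rose by 1.09, 1.13 and 1.13 at the top doses of PBDE-47, DE-71 and phenobarbital. Abcc3, its counterpart on the blood side, rose by 1.72, 1.75 and 1.26. Abcb1a, a multidrug exporter, rose by 0.98 with PBDE-47 and 1.46 with phenobarbital. Lipc, hepatic lipase, fell with all 3 agents, by 0.46, 0.50 and 0.50, and its DE-71 call was lost without replicate 2 (-0.34, adjusted p = 0.13). Its PBDE-47 call was lost in 3 of 9 runs that left out 1 sample (-0.53 to -0.39, adjusted p up to 0.077). Scarb1, the HDL receptor, fell by 0.64 with PBDE-47 and 0.61 with phenobarbital. In all, 4 genes rose and 2 fell with PBDE-47, 2 and 1 with DE-71, and 3 and 6 with phenobarbital, where 4.03%, 10.2% and 2.7% of all genes were called, among them the bile acid enzymes Cyp8b1 (-1.88) and Cyp27a1 (-0.43), the latter not called in 2 of 10 runs that left out 1 sample (-0.46 to -0.35). The fourth riser with PBDE-47, Ttc39b at 0.39, was not called without the nearly identical arrays (0.37) or in 6 of 9 runs that left out 1 sample (0.37 to 0.42). PCB126 had no call at 250 mg/kg in this list, where 0.0563% of all genes were called.

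SREBP2 targets, the genes of cholesterol synthesis and uptake that are switched on when sterols are low, had medians above 0 with 3 of the agents. Of 12 measured, 2 were called at 50 mg/kg PBDE-47 (2.35% of all genes called as risen), Msmo1 (up by 1.20) and Sc5d (up by 0.55). The list median there was 0.54. The same 2 were called at 45 mg/kg phenobarbital (1.10 and 0.67, median 0.45), beside 1.38% of all genes called as risen. Msmo1 lost its call in 4 of 9 runs that left out 1 sample with PBDE-47 (1.10 to 1.29, adjusted p up to 0.081) and in 7 of 10 with phenobarbital (lowest 0.94, adjusted p up to 0.12), and Sc5d in none. At 5 mg/kg phenobarbital, where 0.106% of all genes were called (0.0844% risen), Msmo1, Idi1 and Sc5d rose by 1.47, 1.44 and 0.66 (median 0.80). None was called at 50 mg/kg DE-71 (median 0.25) or 250 mg/kg PCB126 (median -0.22). There 4.83% and 0.0563% of all genes were called as risen. All 12 lay below 0 at every PCB126 dose, with a median of -0.51 at 50 mg/kg, and none was called.

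The genes most like the pair across samples were ranked by r with the mean of Abcg5 and Abcg8, each gene centred on its agent, among 4159 genes with enough signal and range. Qsox1, a thiol oxidase, was highest at 0.79. It differed by -1.72, -1.74 and -1.53 at the top doses of PBDE-47, DE-71 and phenobarbital. Centring on the agent leaves the dose in the ranking, so these differences are part of the likeness and no separate result. Ak4, an adenylate kinase, followed at 0.75, Pemt, which makes phosphatidylcholine, at 0.75, Dexi at 0.74, the protease inhibitor A2m at 0.74 and glutamate dehydrogenase (Glud1) at 0.72. Within groups the r of these genes was lower, from 0.28 (Dexi) to 0.60 (Glud1), with 0.56 for Qsox1. The lowest were Adss1 at -0.83, Psmd11, a proteasome subunit, at -0.78, Cndp2 at -0.77 and Mmgt1 at -0.76. On the same measure Abca1 had 0.29, Abcg1 0.26, Mylip 0.06, Lpcat3 -0.06 and Nr1h3 -0.22, all inside the range from -0.36 to 0.34 that holds the middle 90% of all genes.

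Markers of the liver's cells give the setting of these values. The 6 measured hepatocyte markers averaged 13.22 to 13.60 across groups, so hepatocyte RNA was present throughout. Of them Apoa2 rose with PBDE-47 and DE-71 (by 2.13 and 2.46 at 50 mg/kg), and Cps1 and Serpina1 fell by 0.47 and 0.22 at 50 mg/kg DE-71. Among cholangiocyte markers Epcam rose by 1.35, 1.28 and 0.74 at the top doses of PBDE-47, DE-71 and phenobarbital, the other measured markers of that list not being called. Kupffer markers averaged 8.60 in PBDE-47 controls and 8.01 at 50 mg/kg, and their list medians were 0.19 at 50 mg/kg DE-71 and -0.18 at 45 mg/kg phenobarbital, with no call. Their part in the values of the pair was not tested. At 50 mg/kg DE-71 the endothelial Kdr differed by -0.49, beside 4.83% of all genes called as risen and 5.35% as fallen. Of the stellate markers Lrat differed by -0.58 and Des by 0.34, in opposite directions. Like Serpina1, Kdr, Lrat and Des were not called without replicate 2. Gut and pancreas markers averaged 5.21 to 5.63 with no call in the main fit. Without the nearly identical arrays, Fabp2 of that list was called as risen at 50 mg/kg DE-71. In that setting 3 of 4 endothelial markers (Kdr, Lyve1 and Stab2) were called as fallen, and 13.4% of all genes were called. Without replicate 2 neither list held a call at that dose.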

How the data were processed

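The values are log2 expression from Affymetrix rat arrays, normalized by the authors with RMA per the submitters' processing notes and deposited as 1 table of 74 arrays. Array medians were highest for phenobarbital, and whether the agents were normalized together is not given in the sources used here, so each dose was set only against 0 mg/kg of its own agent. Probe sets were named from a 2016 platform annotation. Of 31099 probe sets, 20826 had 1 gene symbol, 436 several and 9780 none, and 57 were controls; for each gene, the brightest of its single-gene probe sets on average was used. Arrays of 1 group with a root mean square difference under 0.3 were averaged. One limma fit (limma 3.58.1, R 4.3.3) held 15 group means with 57 residual degrees of freedom, p-values were two-sided and adjusted by Benjamini-Hochberg over 14217 genes per comparison, and genes were called below 0.05. The script was tested on simulated data. The genes, lists and comparisons were chosen with earlier results of these data known. The text names all 7 genes, most but not all called list members at the top doses (at most 2 where none was called), and the index genes Cyp1a1 and Ces2c. It also names the 6 highest and 4 lowest genes by likeness. Further list members named were chosen after their values were seen. Array numbers limit the precision. Alternatives are given in the closing section; counts per list without doubtful arrays were added after seeing the data.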

Additional observations from a re-analysis of the deposited data

Results flagged for a closer look

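Of 105 groups of values for single genes, 11 held a sample whose gap to the nearest other exceeded Dixon's critical value, where chance alone flags about 1 in 20. Abcg5 in replicate 4 of phenobarbital 45 mg/kg read 6.13, below the 7.54 to 8.04 of the others. Nr1h3 read 9.12 in replicate 1 of phenobarbital 5 mg/kg (others 9.22 to 9.25) and 10.04 in replicate 5 of PCB126 50 mg/kg (others 9.37 to 9.52). Abca1 read 8.19 in that PCB126 liver (others 9.20 to 9.36) and 8.73 in replicate 5 of PCB126 250 mg/kg (others 9.33 to 9.52). Mylip was low at 4.99 in replicate 5 of the phenobarbital controls, high at 5.92 in replicate 3 of the PCB126 controls and high at 5.78 in replicate 1 of PBDE-47 50 mg/kg. Lpcat3 was high at 9.08 in replicate 1 of the PCB126 controls, low at 8.41 in replicate 3 of PCB126 250 mg/kg and low at 8.22 in replicate 2 of DE-71 50 mg/kg (others 8.60 to 8.61).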

How the results depend on the processing

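Values were compared for 166 results under 8 or 9 alternatives and with each sample left out in turn, except that likeness had only Spearman's rho as 1 alternative. No called value changed sign; 120 comparisons of values that were not called did. With only the arrays of the comparison, or only those of DE-71, in the fit, Nr1h3 (0.46) and Abca1 (-0.46) at DE-71 50 mg/kg lost their calls, so the count among the 5 LXR genes went from 2 to 0. Leaving out 1 sample gave 0.21 to 0.60 for Nr1h3, -0.58 to -0.31 for Abca1 and 0 to 2 calls. For phenobarbital 45 mg/kg it gave -1.63 to -1.09 for Abcg5 and -1.90 to -1.37 for Abcg8. Fewer samples entered these alternatives, and why the calls changed was not tested. Same-numbered samples of different doses correlated between -0.42 and 0.44, the highest value being that of the nearly identical replicates 3 of PBDE-47. Samples with different numbers were not compared in this way, so whether the numbers pair the samples cannot be told. With the replicate block and all arrays as separate samples, Abcg5 at phenobarbital 45 mg/kg was -1.42 (adjusted p = 0.041) and Abcg8 -1.63 (0.017), and no call of the 7 genes changed. Counts of called genes moved by over 1.5 times in several settings. They went from 117 to 366 at PBDE-47 15 mg/kg, from 573 to 1001 at PBDE-47 50 mg/kg and from 177 to 352 at DE-71 15 mg/kg with the block and all arrays as separate samples, 2 changes made together. They went from 117 to 61 without the nearly identical arrays and to 44 without PBDE-47 control replicates 3 and 4 (573 to 359 at 50 mg/kg). DE-71 15 mg/kg went from 177 to 43 with only the agent's arrays and to 101 without replicates 1 and 2. DE-71 50 mg/kg went from 1448 to 118 with only the comparison's arrays and to 388 without replicate 2. Phenobarbital 45 mg/kg went from 384 to 739 with only the agent's arrays and to 233 without replicate 5, and 5 mg/kg from 15 to between 5 and 24. PCB126 went from 1 to between 0 and 3 at 50 mg/kg and from 8 to 4 at 250 mg/kg. Abcg8 at its lowest averaged 3.99 (50 mg/kg PBDE-47), below the array medians of 4.82 to 5.04, which limits what can be said of it there.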
